A study of Homo sapiens with 6 samples.

Results

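Potassium channel genes were examined in ARPE-19 cells overexpressing CD51-ICD and in control cells. ARPE-19 is an immortal human line derived from the retinal pigment epithelium (RPE). Members were the protein-coding rows of the deposited count table whose symbol starts with KCN, which gave 97 of 58735 genes. The rule uses the symbol and the biotype and no measured value. The OE CD51 ICD group held 3 libraries of ARPE-19 cells whose genotype label is CD51_ICD over expression, and the NC group held 3 libraries of ARPE-19 cells labelled WT. CD51 is the integrin alpha V subunit, encoded by ITGAV. The sources used here do not give the expression construct, whether NC cells carried an empty vector, or whether each replicate was grown apart. The p-values therefore speak only for the variation among the 6 libraries sequenced, part of which could be technical.

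Potassium channels let potassium leave or enter a cell along its gradient and so set the resting potential and shape its response to calcium, voltage and stretch. Pore-forming subunits fall into voltage-gated, calcium- or sodium-activated, inward-rectifying and K2P (leak) families, and auxiliary subunits change their gating and traffic. In native RPE, the inward rectifier encoded by KCNJ13 lies in the apical membrane and recycles potassium to the space under the retina, while large-conductance (BK) and KCNQ channels have also been described there.

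Library depth ran from 13616694 to 16934668 counts. ITGAV, the gene that encodes CD51, had 436, 536 and 371 CPM (read counts scaled to library depth) in OE CD51 ICD replicates 1, 2 and 3. It had 113, 92.7 and 89.4 CPM in NC replicates 1, 2 and 3, which went with the labels. Reads of a construct and of the cell's own ITGAV are counted together in this row. Of 9 RPE markers, 4 had a mean of at least 1 CPM, and RPE65 and TTR had no count in any library. PMEL and RLBP1 rose (log2 0.80 and 0.81, adjusted p = 1.25e-04 and 0.0134 by edgeR) and MITF fell (log2 -0.56, adjusted p = 0.00119 by edgeR), while the summed level was 59.4 to 77.6 CPM in OE CD51 ICD and 63.3 to 72.3 CPM in NC. Neurons, glia and muscle carry many potassium channels. Of 7 neuron markers, 4 were at 0 in all libraries, among them SNAP25 and STMN2, and the list summed to 4.01 to 7.66 CPM in OE CD51 ICD and 4.53 to 5.44 CPM in NC. The glial defining markers GFAP, AQP4 and S100B were at or near 0, and MBP, which rose, made up nearly all of the glial sum of 53.5 to 72.9 CPM in OE CD51 ICD and 40.5 to 45.1 CPM in NC. Of 5 muscle markers, MYOD1 and TNNT2 were at 0, DES fell, and the list summed to 5.72 to 6.63 CPM in OE CD51 ICD and 7.37 to 9.66 CPM in NC. Among 7 fibroblast markers, COL1A1 and PDGFRB rose, DCN was at 0, and COL1A2, LUM, PDGFRA and THY1 had too few counts for the test. The sum was 1603 to 2034 CPM in OE CD51 ICD and 239 to 282 CPM in NC. Most of this rise was COL1A1, with means of 1452 CPM in OE CD51 ICD and 32.9 CPM in NC. Leukocyte markers summed to 31.3 to 37.1 CPM in OE CD51 ICD and 3.04 to 4.67 CPM in NC through CSF1R, while PTPRC had 1 count in all. CDH1 and EPCAM were near 0, and KRT8 and KRT18 made up the epithelial sum of 4547 to 5288 CPM in OE CD51 ICD and 5083 to 5547 CPM in NC. Endothelial markers summed to 0.501 to 1.57 CPM in OE CD51 ICD and 2.08 to 2.83 CPM in NC, with KDR lower. The part of these shifts in the channel results was not tested. In bulk RNA, fewer cells of a type and less RNA per cell cannot be told apart.

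Most potassium channel genes were silent or barely counted in these cells. At least 1 count was found for 69 of 97 members in some library, and 28 had none, which with 90119077 counts in all allows up to 0.0333 CPM for a gene whose reads can be assigned to it (3 counts over the 6 libraries; counting error only). For KCNA6, whose exons lie wholly within those of GALNT8 on the same strand, for KCNJ18, which has a near-identical copy, and for KCNMB2, which shares 32.1% of its exon bases with another gene on the same strand, a 0 sets no such limit. Since strand use is not known, the same holds for KCNC2, which shares 35.5% of its exon bases with a gene on the other strand. In OE CD51 ICD, 63 members had a count, against 60 in NC. Only 23 members, or 23.7%, had enough counts to be tested, against 60.8% of all protein-coding genes. A mean of at least 1 CPM was reached by 16 members in OE CD51 ICD and by 19 in NC, and at least 10 CPM by 4 in OE CD51 ICD and by 5 in NC. A mean FPKM (counts scaled to gene length and library depth, as deposited) of at least 1 was reached by 7 members in OE CD51 ICD and by 8 in NC.

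The classes differed in how many of their genes were seen. All 8 calcium- or sodium-activated members had a count and 3 were tested. Of 30 voltage-gated pore genes, 21 had a count and 8 were tested, with 6 members of the KCNA (Shaker) family among the 9 at 0. Of 16 inward rectifiers, 9 had a count and 2 were tested. Of 15 K2P genes, 8 had a count and 3 were tested. Of 10 electrically silent subunits, which modify other voltage-gated channels and form no channel of their own, 8 had a count and KCNS3 alone was tested. Of 18 auxiliary genes, 15 had a count and 6 were tested.

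**Figure D1:**
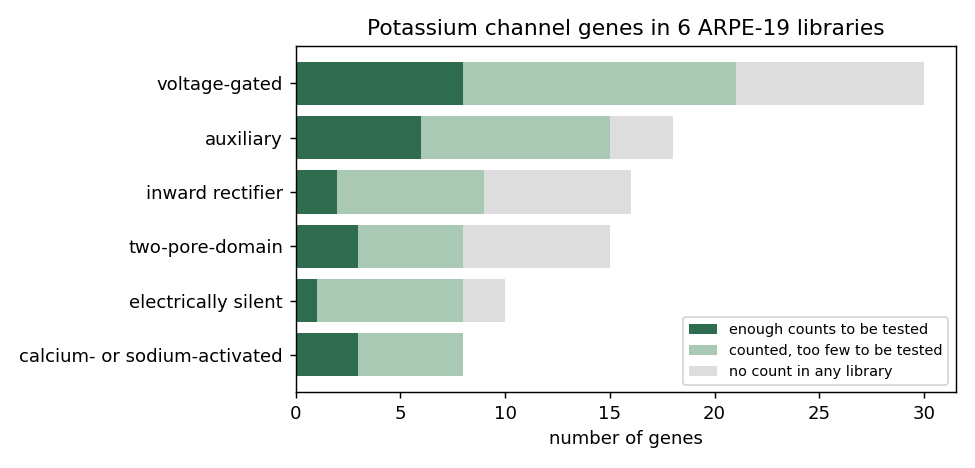
Number of potassium channel genes per class (horizontal axis) that were tested, that had counts but too few for a test, or that had no count in any of the 6 libraries. Voltage-gated genes are the largest class, with 8 of 30 tested, and 7 of 16 inward rectifiers had no count.

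Per length, the most abundant members were KCNK6 and KCNN4. KCNK6, which encodes the K2P subunit TWIK-2 (chromosome 19, 38319844 to 38332076, GRCh38), averaged 7.05 ± 0.217 FPKM in OE CD51 ICD and 4.78 ± 0.585 FPKM in NC (SD, n = 3 each, as for all means here). KCNN4, the calmodulin-gated intermediate-conductance channel (chromosome 19, 43766533 to 43781261), averaged 6.39 ± 0.473 FPKM in OE CD51 ICD and 4.37 ± 0.443 FPKM in NC. KCNAB2, KCNMA1, KCNK1 and KCNS3 followed, with means over all libraries of 1.97, 1.95, 1.95 and 1.72 FPKM, and KCNH3 was at 0.635 FPKM. KCNMA1, the BK pore subunit (chromosome 10, 76869601 to 77638369), is penalised by the length used, since its exons together span 35644 bases and its longest coding transcript 12071. With CPM per kilobase of the longest coding transcript, a scale chosen after seeing the data, the order was KCNN4, KCNK6, KCNMA1 and KCNAB2.

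Read per gene rather than per length, which favours long transcripts, KCNMA1 had the highest level in both groups. It made up 41.7%, 43.1% and 39.1% of the summed CPM of the 97 members in OE CD51 ICD replicates 1, 2 and 3, against 25.4%, 26.5% and 25.5% in NC replicates 1, 2 and 3. The summed CPM of all members was 227 ± 4.73 in OE CD51 ICD and 183 ± 1.95 in NC. Summed FPKM of the calcium- or sodium-activated class was 9.32 ± 0.347 in OE CD51 ICD and 6.16 ± 0.451 in NC, and that of the K2P class 9.87 ± 0.482 in OE CD51 ICD and 7.62 ± 0.941 in NC. The voltage-gated class was at 3.03 ± 0.121 FPKM in OE CD51 ICD and 4.29 ± 0.335 FPKM in NC. Inward rectifiers summed to 0.559 ± 0.0913 FPKM in OE CD51 ICD and 0.902 ± 0.147 FPKM in NC, and electrically silent subunits to 1.64 ± 0.189 FPKM in OE CD51 ICD and 2.31 ± 0.569 FPKM in NC. Libraries of the 2 groups did not overlap in these 5 classes, 2 with the larger sum in OE CD51 ICD and 3 with the smaller, and no test was run on the sums. Of all single genes tested, 57.5% did not overlap, a share that is no background for sums of genes. KCNK6 made up most of the K2P sum, at 7.05 FPKM in OE CD51 ICD and 4.78 FPKM in NC, although KCNK2 fell. In the calcium- or sodium-activated class KCNN4 did so, at 6.39 FPKM in OE CD51 ICD and 4.37 FPKM in NC. KCNS3, not past the test, made up most of the silent-subunit sum, at 1.45 FPKM in OE CD51 ICD and 1.99 FPKM in NC. In the voltage-gated class the largest fall was that of KCNH3, at 0.179 FPKM in OE CD51 ICD and 1.09 FPKM in NC. Among inward rectifiers it was that of KCNJ11, at 0.111 FPKM in OE CD51 ICD and 0.322 FPKM in NC. Some members of these classes rose, such as KCNA7, at 0.440 FPKM in OE CD51 ICD and 0.0158 FPKM in NC.

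**Figure D2:**
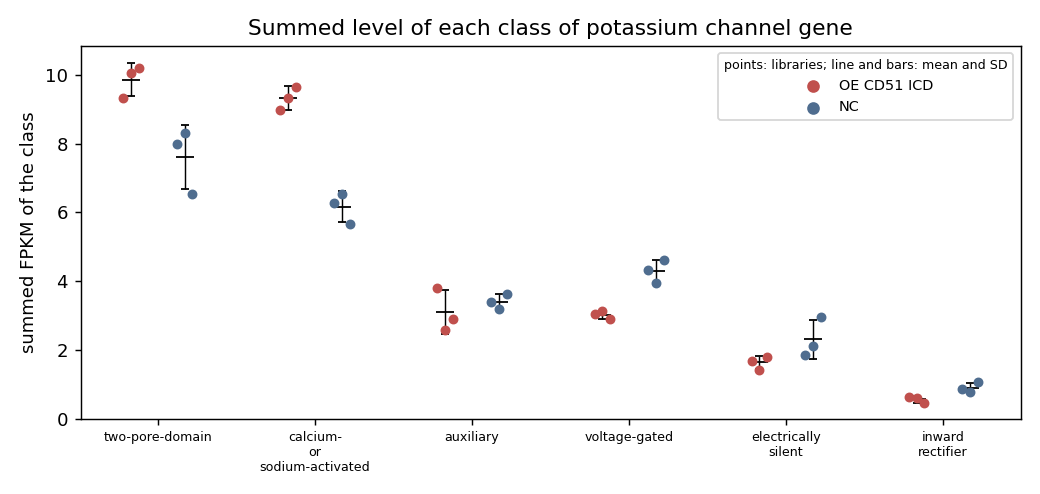
Summed deposited FPKM of each class of potassium channel gene (vertical axis) in every library, with mean and SD of 3 libraries, for OE CD51 ICD and NC. The K2P and the calcium- or sodium-activated classes sat higher in OE CD51 ICD, the voltage-gated, inward rectifier and electrically silent classes lower, and the auxiliary class overlapped. KCNK6, KCNN4 and KCNS3 each made up most of the sum of their class.

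The upstream sequences of 5 members past the test are shown for reference to their base composition and to a few short motifs, as RefSeq gives them on GRCh38.p14. The RefSeq table held 110 starts for 72 of the 97 members. Each stretch covers the 250 bases before a start, 5′ to 3′ on the gene's strand, chosen among starts whose stretch held at most 1 base of an exon in GENCODE 29 and closest to the start of the gene in the files. Capitals mark matches on either strand to any of 5 motifs, with overlapping matches counted separately. The AP-1 motif was searched as TGANTCA. The E-box bound by SNAI and ZEB factors was searched as CACCTG. For the E2F motif the letters were TTTCCCGC. A GC box was read as GGGCGG wherever it occurred. The TATA box was taken to be TATAAA in each stretch. KCNMA1 is at chr10:77350762-77351011 (minus strand, an internal start), KCNK6 at chr19:38319595-38319844, KCNC4 at chr1:110210064-110210313, KCNK2 at chr1:215005292-215005541 and KCNIP3 at chr2:95346408-95346657 (internal start), the last 4 on the plus strand.
KCNMA1: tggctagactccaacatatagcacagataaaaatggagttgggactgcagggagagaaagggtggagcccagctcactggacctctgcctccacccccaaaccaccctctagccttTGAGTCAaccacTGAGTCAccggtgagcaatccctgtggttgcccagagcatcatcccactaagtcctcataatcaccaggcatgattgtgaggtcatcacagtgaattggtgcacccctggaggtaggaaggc
KCNK6: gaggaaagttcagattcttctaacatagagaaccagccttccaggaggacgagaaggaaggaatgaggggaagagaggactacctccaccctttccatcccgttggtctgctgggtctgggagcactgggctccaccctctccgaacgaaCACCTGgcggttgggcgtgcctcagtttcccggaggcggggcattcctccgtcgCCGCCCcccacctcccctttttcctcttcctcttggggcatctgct
KCNC4: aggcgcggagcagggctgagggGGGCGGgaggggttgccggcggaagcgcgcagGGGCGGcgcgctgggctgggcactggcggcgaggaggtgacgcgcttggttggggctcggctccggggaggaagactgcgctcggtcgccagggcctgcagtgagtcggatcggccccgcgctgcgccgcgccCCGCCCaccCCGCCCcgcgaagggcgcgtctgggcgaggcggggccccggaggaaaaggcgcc
KCNK2: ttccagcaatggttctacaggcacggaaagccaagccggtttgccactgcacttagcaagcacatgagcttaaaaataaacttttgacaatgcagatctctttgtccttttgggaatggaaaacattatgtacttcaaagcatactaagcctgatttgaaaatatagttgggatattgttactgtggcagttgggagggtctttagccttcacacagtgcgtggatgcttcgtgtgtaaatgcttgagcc
KCNIP3: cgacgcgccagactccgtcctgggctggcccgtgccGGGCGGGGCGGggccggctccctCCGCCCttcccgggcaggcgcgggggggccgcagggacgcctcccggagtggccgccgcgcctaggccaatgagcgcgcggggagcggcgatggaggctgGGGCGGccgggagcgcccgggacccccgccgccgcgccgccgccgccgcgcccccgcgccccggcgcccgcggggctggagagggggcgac
The KCNMA1 stretch held 2 AP-1 matches, a motif found in 6.57% of 35114 such stretches of all RefSeq starts. KCNMA1 has another start, nearer the start of the gene, whose stretch was left out because it lies in an exon. That stretch held no AP-1 match, 6 GC boxes and 85.6% GC. KCNC4 and KCNIP3 held 4 GC boxes each and KCNK6 held 1, where 42.6% of all stretches hold at least 1. KCNK6 also held 1 E-box match, found in 17.5% of all stretches, and the KCNK2 stretch shown held none of the 5 motifs. At another, internal start of KCNK2 the stretch held 1 E-box match and 63.6% GC. The GC share of the stretch was 86.0% in KCNIP3, 79.2% in KCNC4, 59.6% in KCNK6, 53.6% in KCNMA1 and 42.8% in KCNK2, against a median of 58.0% over all starts. A match is a run of letters and not a shown site, gene counts do not say which start was used, and the E2F motif was in 1.39% and the TATA box in 10.7% of all stretches.

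Overexpression went with rises and falls among the channels and no common direction. Of the 23 tested members, 12 were past an adjusted p of 0.05 (edgeR's quasi-likelihood test, adjusted over all 13787 genes tested), a share of 52.2% where 51% of all tested genes passed. Higher in OE CD51 ICD were 5 members, KCNMA1, KCNK6, KCNN4, KCNK1 and KCNA7, where 25.2% of all genes were higher. Lower were 7 members, KCNAB2, KCNC4, KCNH3, KCNK2, KCNQ5, KCNJ11 and KCNIP3, where 25.8% of all genes were lower. These shares lie near the background and are not a result about the channels as a set. By at least 2-fold, KCNA7 was higher and KCNH3, KCNK2, KCNQ5, KCNJ11 and KCNIP3 were lower, 6 members in all, where 12.7% of all genes passed. Of the 6, KCNA7, KCNH3, KCNJ11 and KCNIP3 had enough counts for the test only through the group where they were higher. The 2-fold count is therefore not a result about the channels. The 2 groups of libraries did not overlap in 15 tested members, or 65.2%, where the share of all genes was 57.5%. The median log2 fold change was -0.35 over the tested members and 0.01 over all tested genes.

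How a member passed the filter bears on these counts. KCNA7 and KCNJ14 passed through the OE CD51 ICD libraries alone, and KCNH3, KCNIP3 and KCNJ11 through the NC libraries alone, so those among them with a large change had to differ to be tested. The other members, 16 with enough counts in both groups and KCNAB3 and KCNIP4 with a mix of libraries, did not depend on 1 group. Below a mean of 5 CPM, 6 of 16 members and 31.1% of all genes passed the test, and at or above it 6 of 7 members and 58.7% of all genes.

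**Figure D3:**
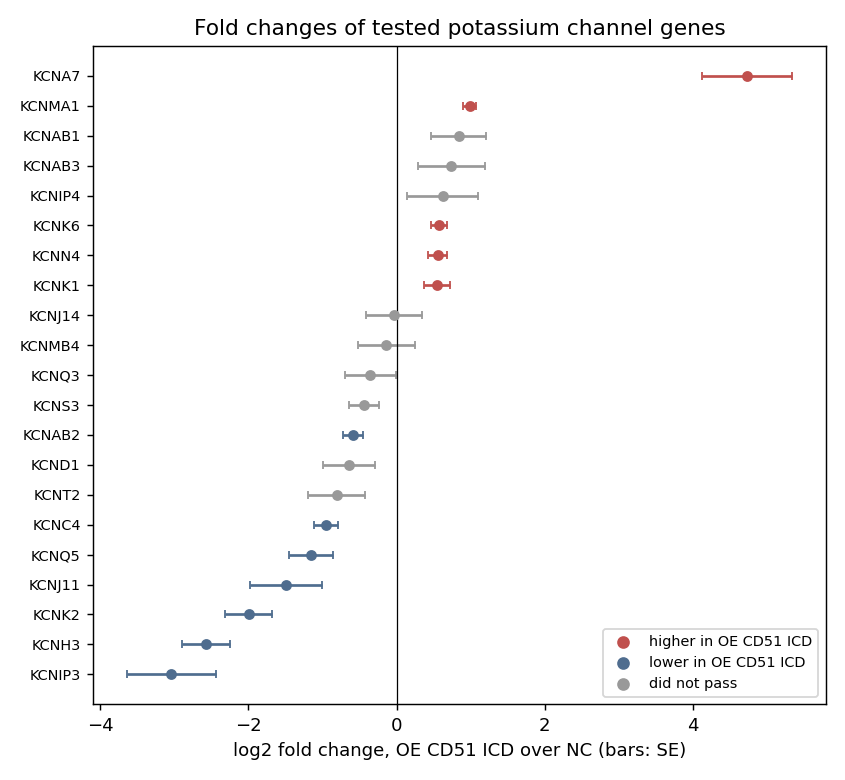
Log2 fold change of OE CD51 ICD over NC with its standard error for 21 of the 23 tested potassium channel genes, ordered by value. The 12 genes past the test run from KCNA7 at 4.73 to KCNIP3 at -3.04, and the grey genes did not pass.

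Among calcium- and sodium-activated channels, the BK pore gene and the intermediate-conductance gene rose. KCNMA1 had 94.5, 99.6 and 86.8 CPM in OE CD51 ICD replicates 1, 2 and 3, against 46.7, 48.8 and 46.1 CPM in NC replicates 1, 2 and 3. Every OE CD51 ICD library lay well above every NC library, and the fold was 1.98 (log2 0.99 ± 0.09 SE, adjusted p = 1.51e-10 by edgeR). With the gene length trend of each library removed, the log2 value was 0.45 (adjusted p = 6.41e-05 by edgeR). KCNMA1 shares 419 exon bases, 1.18% of its exons, with the antisense KCNMA1-AS1, which had 9 counts in all libraries. KCNN4 had 20.5, 22.1 and 23.5 CPM in OE CD51 ICD, against 14.4, 16.8 and 13.9 CPM in NC. The groups did not overlap, and the fold was 1.47 (log2 0.55 ± 0.13 SE, adjusted p = 7.76e-04 by edgeR). KCNT2, a sodium-activated channel gene, had 1.58, 1.504 and 1.14 CPM in OE CD51 ICD, against 4.57, 1.56 and 1.15 CPM in NC. NC replicate 1 alone stood high, and the gene did not pass (log2 -0.81, adjusted p = 0.0821). Without that library its log2 value was 0.06, and it passed with a lower level in OE CD51 ICD without NC replicate 2 or 3 (adjusted p = 0.0354 and 0.0133 by edgeR). The small-conductance genes KCNN1, KCNN2 and KCNN3, KCNT1 and KCNU1 had 1 to 26 counts each over all libraries.

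The partners of the BK pore were scarce. KCNMB4, a beta subunit of BK channels best known from neurons, was at 0.998 ± 0.338 CPM in OE CD51 ICD and 1.10 ± 0.113 CPM in NC and did not pass (log2 -0.14, adjusted p = 0.790). KCNMB3, another beta subunit, had 10, 9 and 3 counts in OE CD51 ICD and 2, 4 and 1 counts in NC, too few for the test. KCNMB3 shares 3403 exon bases, 37.9% of its exons, with PIK3CA on the other strand, which had 447 counts, so its value is uncertain. KCNMB1 and KCNMB2 had no count in any library. Of the gamma subunits, LRRC26 had 0 counts over OE CD51 ICD and 8 over NC, and LRRC38, LRRC52 and LRRC55 had none.

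The K2P leak channels moved in opposite directions. KCNK6 had 42.3, 45.0 and 44.6 CPM in OE CD51 ICD, against 31.4, 32.3 and 25.4 CPM in NC. All OE CD51 ICD libraries were higher than all NC libraries, with a fold of 1.48 (log2 0.57 ± 0.11 SE, adjusted p = 6.00e-05 by edgeR). KCNK1, which encodes TWIK-1 (chromosome 1), had 7.70, 9.36 and 8.37 CPM in OE CD51 ICD, against 6.08, 6.30 and 5.001 CPM in NC. The groups did not overlap and the fold was 1.46 (log2 0.55 ± 0.18 SE, adjusted p = 0.0119 by edgeR), but the call was lost without NC replicate 3 (adjusted p = 0.0537; 0.00432 to 0.0537 over its alternatives). KCNK2, which encodes TREK-1, a leak channel opened by stretch and lipids (chromosome 1, 215005775 to 215237093), had 0.988, 0.683 and 1.07 CPM in OE CD51 ICD, against 3.47, 4.60 and 2.97 CPM in NC. Its groups stood far apart, with a log2 fold change of -1.998 ± 0.31 SE (adjusted p = 3.70e-06 by edgeR). KCNK7 had 15 counts over OE CD51 ICD and 19 over NC, and KCNK5, KCNK12, KCNK4 and KCNK15 had 12 or fewer over all libraries. KCNK4 shares 61.9% of its exon bases with KCNK4-TEX40 on the same strand. KCNK15 shares 19.5% with RIMS4 on the other strand, so the values of KCNK4 and KCNK15 are uncertain.

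Of 8 tested voltage-gated pore genes, 3 were lower and 1 was higher. Among all tested genes, 25.8% were lower and 25.2% higher. KCNH3 and KCNA7 had enough counts for the test only through the group where they were higher. The count is therefore not a result about the class. KCNC4, a fast-inactivating Kv3 subunit (chromosome 1, 110211343 to 110283100), had 7.97, 6.63 and 7.94 CPM in OE CD51 ICD, against 12.9, 15.2 and 15.5 CPM in NC. The lowest NC library lay above every OE CD51 ICD library (log2 -0.95 ± 0.16 SE, adjusted p = 1.01e-05 by edgeR). KCNH3, of the ELK branch of the EAG family (chromosome 12, 49539157 to 49558308), had 1.25, 0.752 and 0.358 CPM in OE CD51 ICD, against 5.27, 4.04 and 5.001 CPM in NC. The separation was wide, at a log2 fold change of -2.57 ± 0.32 SE (adjusted p = 8.18e-08 by edgeR), and KCNH3 shares 14 exon bases, 0.323% of its exons, with MCRS1 on the other strand. KCNQ5, an M-current subunit, had 1.98, 1.98 and 0.858 CPM in OE CD51 ICD, against 3.41, 3.12 and 4.33 CPM in NC. OE CD51 ICD replicate 3 was the lowest library, and the groups did not overlap (log2 -1.16 ± 0.30 SE, adjusted p = 0.00160 by edgeR). KCNQ5 shares 282 exon bases, 3.73% of its exons, with a non-coding gene that had 5 counts.

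KCNA7, a Kv1 subunit (chromosome 19, 49067418 to 49072941), was the one Shaker-family gene past the test. It had 22, 33 and 30 counts in OE CD51 ICD replicates 1, 2 and 3, against 0, 2 and 1 counts in NC replicates 1, 2 and 3. It was thus close to absent in NC and low in OE CD51 ICD, with means of 1.95 ± 0.438 CPM in OE CD51 ICD and 0.0697 ± 0.0708 CPM in NC. The ratio of summed counts, scaled to depth, was 29.9, with an exact 95% interval of 9.89 to 148 that covers counting error only (log2 4.73 ± 0.61 SE in the fit, adjusted p = 1.44e-07 by edgeR). The log2 value was 4.12 without NC replicate 1 and 5.63 without NC replicate 2. No other annotated gene shares exon bases with it. Its relatives KCNA1, KCNA2, KCNA3, KCNA5 and KCNA10 had no count, KCNA6 was listed at 0 but shares all 4237 of its exon bases with GALNT8, also at 0, and KCNA4 had 8 counts over OE CD51 ICD and 10 over NC.

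The silent subunit KCNS3 and the remaining tested voltage-gated genes did not pass. KCNS3, a silent partner of other voltage-gated subunits, had 4.67, 4.24 and 4.86 CPM in OE CD51 ICD, against 5.21, 5.66 and 7.91 CPM in NC. All OE CD51 ICD libraries were below those of NC, without passing the test (log2 -0.44, adjusted p = 0.0722). NC replicate 3 was the highest library. KCNS3 passed without NC replicate 1 (adjusted p = 0.0362 by edgeR), and without NC replicate 3 its log2 value was -0.24 (adjusted p = 0.376 by edgeR). KCNQ3 and KCND1 had log2 values of -0.35 and -0.65, with adjusted p of 0.416 and 0.130. KCNQ1 had 2, 1 and 2 counts in OE CD51 ICD and 4, 4 and 1 counts in NC. KCNH1, linked to proliferation in tumour cells, had 3, 13 and 9 counts in OE CD51 ICD and 5, 3 and 3 counts in NC, and was not tested. KCNH1 shares 36.9% of its exon bases with a gene on the other strand and 16.1% with a gene on the same strand. Its value is therefore uncertain.

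**Figure D4:**
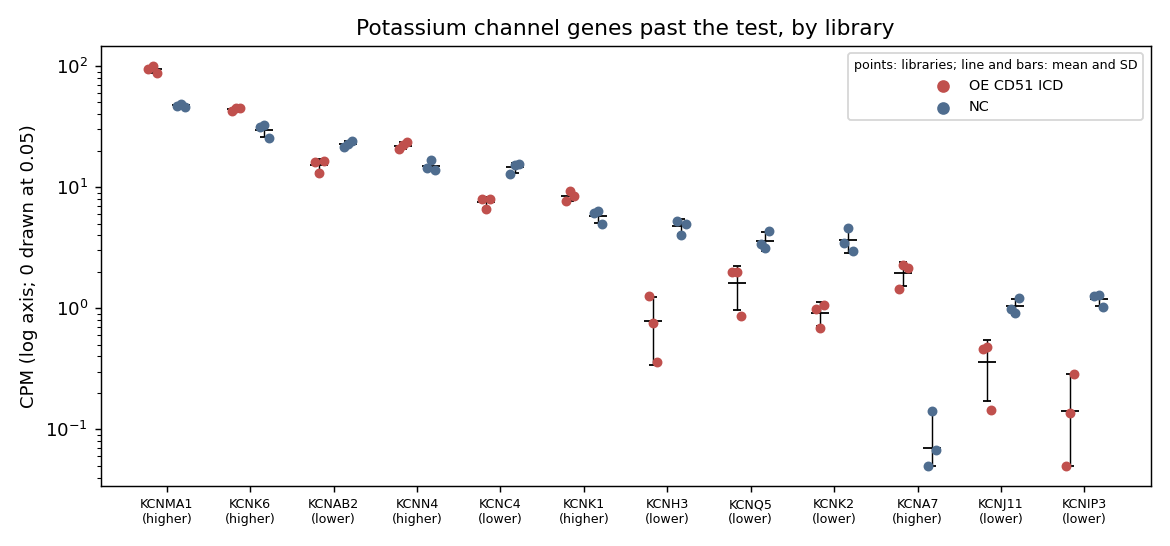
Level in CPM (log axis, 0 drawn at 0.05) of the 12 potassium channel genes past the test in each library, with mean and SD, OE CD51 ICD beside NC. The 2 groups are apart for each gene shown, from KCNMA1 near 100 CPM in OE CD51 ICD to KCNIP3 below 0.3 CPM there.

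Inward rectifiers were nearly absent, including those best known from RPE. KCNJ13 had no count in OE CD51 ICD and 0, 0 and 3 counts in NC replicates 1, 2 and 3, and KCNJ10 had no count in any library. KCNJ13 shares 722 exon bases, 24.3% of its exons, with GIGYF2 on the other strand, which had 4430 counts. KCNJ11, the pore of the ATP-sensitive potassium channel (chromosome 11, 17385859 to 17389331), had 7, 7 and 2 counts in OE CD51 ICD, against 17, 13 and 18 counts in NC. It was lower in all OE CD51 ICD libraries (log2 -1.49 ± 0.49 SE, adjusted p = 0.0120 by edgeR), but the call was lost without OE CD51 ICD replicate 3 (adjusted p = 0.0655; 0.00462 to 0.0655 over its alternatives). Its sulfonylurea receptor partners were also low, with no count for ABCC8 and with 15 counts over OE CD51 ICD and 35 over NC for ABCC9. KCNJ14 was at 1.25 ± 0.157 CPM in OE CD51 ICD and 1.27 ± 0.552 CPM in NC and did not pass (adjusted p = 0.946). It shares 350 exon bases, 8.07% of its exons, with GRWD1, which had 9347 counts, so its value is uncertain. KCNJ2, a strong rectifier, had 2, 5 and 2 counts in OE CD51 ICD and 8, 14 and 10 counts in NC, too few for the test. In a fit with no filter on low counts KCNJ2 was lower (log2 -1.74, adjusted p = 0.0477 by edgeR). KCNJ12 had 23 counts over OE CD51 ICD and 35 over NC, and its near-identical copy KCNJ18 had none, so reads of this pair may have been split or lost.

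Of 6 tested auxiliary subunit genes, 2 passed the test, both lower, where 51% of all tested genes passed. KCNIP3, 1 of the 2, had enough counts for the test only through the NC libraries. KCNAB2, the Kv1 beta-2 subunit, which resembles aldo-keto reductases (chromosome 1, 5991466 to 6101193), had 16.0, 13.0 and 16.4 CPM in OE CD51 ICD, against 21.5, 22.6 and 24.2 CPM in NC. The groups did not overlap (log2 -0.59 ± 0.13 SE, adjusted p = 4.24e-04 by edgeR), and KCNAB2 shares 111 exon bases, 1.16% of its exons, with NPHP4. KCNIP3, a calcium-binding partner of Kv4 channels that also binds presenilins and DNA (chromosome 2, 95297304 to 95386083), had 0, 2 and 4 counts in OE CD51 ICD, against 22, 18 and 15 counts in NC. It was near the floor of detection in OE CD51 ICD (log2 -3.04 ± 0.61 SE, adjusted p = 1.08e-04 by edgeR), and the log2 value was -2.45 without OE CD51 ICD replicate 1 and -3.98 without OE CD51 ICD replicate 3. KCNAB1 had 1.51, 1.37 and 1.43 CPM in OE CD51 ICD, against 0.810, 0.850 and 0.743 CPM in NC. Its groups did not overlap, and it did not pass (log2 0.84, adjusted p = 0.0613). KCNAB3 and KCNIP4 had log2 values of 0.74 and 0.62, with adjusted p of 0.179 and 0.287. KCNIP2 had 24, 8 and 7 counts in OE CD51 ICD and 8, 2 and 5 counts in NC. Among KCNE genes, KCNE3 had 20 counts over OE CD51 ICD and 21 over NC, KCNE1 had 8 over OE CD51 ICD and 0 over NC, with a near-identical copy in KCNE1B, and KCNE4 had none.

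Libraries also differed by base composition. Among all tested genes the median log2 fold change was 0.25 in the lowest of 5 equal bins of GC content and -0.27 in the highest. The 5 higher members had 43.9% to 61.3% GC in their longest transcript and the 7 lower members 40.8% to 65.8%. With the GC trend of each library removed, all 12 members past the test kept their call and direction, and KCNS3 and KCNT2 passed as well, each lower in OE CD51 ICD.

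**Figure D5:**
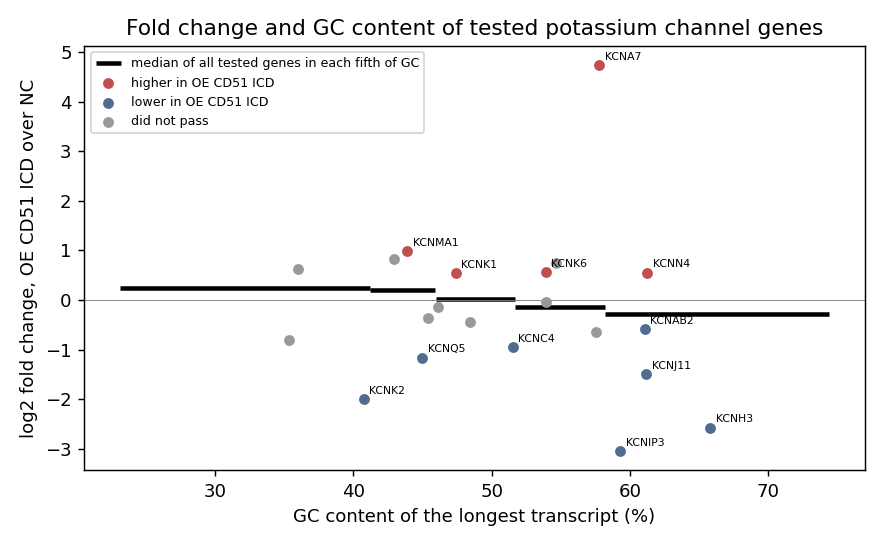
Log2 fold change of OE CD51 ICD over NC (vertical axis) against GC content of the longest transcript for 21 of the 23 tested potassium channel genes, with the median of all tested genes in each of 5 GC bins as black lines. The medians fall from 0.25 to -0.27 with GC content, and the members spread from 4.73 to -3.04 around them.

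Other genes of potassium transport were read from a separate list of 40, which held pumps, cotransporters, partner subunits, HCN channels, intracellular channels and 2 regulators. Enough counts for the test were found for 17. The test called 3 of them higher and 6 lower and left 8 uncalled, a called share of 52.9% where 51% of all tested genes passed. The median log2 fold change was -0.28 over the list, beside 0.01 over all tested genes. SGK1, a kinase that raises the surface level of several channels, was at 50.2 ± 10.04 CPM in OE CD51 ICD and 8.87 ± 0.745 CPM in NC (log2 2.501 ± 0.14 SE, adjusted p = 1.95e-15 by edgeR). ATP1B1, the beta-1 subunit of the sodium pump, was at 46.8 ± 6.31 CPM in OE CD51 ICD and 112 ± 11.6 CPM in NC (log2 -1.26 ± 0.10 SE, adjusted p = 8.78e-12). HCN2, a hyperpolarisation-activated cation channel, fell to 21.1 ± 0.911 CPM in OE CD51 ICD, against 51.8 ± 1.29 CPM in NC, and the potassium-chloride cotransporter SLC12A7 to 26.4 ± 2.44 CPM in OE CD51 ICD, against 42.1 ± 0.104 CPM in NC. TMEM38A, an intracellular cation channel gene, had a log2 fold change of -1.05. ATP1B3 and NEDD4L, a ubiquitin ligase, were lower (log2 -0.22 and -0.28), and HCN3 was higher (log2 0.55). These 3 calls were each lost in several alternatives. The higher count was 1, that of SGK1, without NC replicate 2, NC replicate 3 or OE CD51 ICD replicate 2.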

How the data were processed

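Gene expression was measured by RNA sequencing in 3 OE CD51 ICD and 3 NC libraries of ARPE-19, grouped by sample title. The authors deposited whole-number gene counts, and FPKM values that equal those counts over gene length and 1 constant per library, both without pooling. Per the submitters' processing notes the build was hg38. Nothing in the labels or headers names an aligner, a counter or strand use, so antisense and overlapping reads cannot be told apart. Coordinates are those of the files (GRCh38), and 58724 of 58735 rows had the same start and end in GENCODE 29.

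Counts were filtered with filterByExpr (13787 genes left), scaled by TMM and tested with edgeR 4.0.16 (glmQLFit, glmQLFTest, R 4.3.3), two-sided, with Benjamini-Hochberg adjustment over all genes tested. CPM values are scaled to library size and TMM factor. SEs come from the F statistic. The fit was tested on simulated data in which 200 of 13787 genes were changed. It recovered 84% of those changed by a log2 value of 1 and 97% of those changed by 2, in either direction. Of its calls, 4.23% were false. In the deposited data 51% of genes passed, so the simulation does not test the scaling under that much change. Depth and floors cover counting error only.

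Named were the members past the test with their values, the most abundant members, members known from RPE and, chosen after their values were seen, other members and list genes. Values of a few genes are not reported here. The members and lists were chosen with earlier results of these data known. Alternatives used DESeq2 1.42.0, limma 3.58.1 (voom, or log2(FPKM + 1) and log2(FPKM + 0.1)), other scalings and filters, loess removal of GC or length trends, each library left out, and a replicate block. Tables and plots used Python 3.11.15, pandas 2.3.3, NumPy 2.4.6 and matplotlib 3.10.9.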

Additional observations from a re-analysis of the deposited data

Results flagged for a closer look

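KCNQ1OT1, an antisense non-coding RNA gene within the KCNQ1 locus, lies outside the protein-coding rows described and was counted above its control level. It had 2.83, 4.99 and 2.29 CPM in OE CD51 ICD replicates 1, 2 and 3, against 0.752, 1.20 and 1.55 CPM in NC replicates 1, 2 and 3, a log2 fold change of 1.54 (adjusted p = 3.21e-04 by edgeR). The call was lost with the gene length trend removed (0.73 on the log2 scale, adjusted p = 0.0523) and in limma on log2(FPKM + 1) and log2(FPKM + 0.1) (adjusted p = 0.572 and 0.318), and over its other alternatives adjusted p ran from 3.13e-06 to 0.0103. It was called without each library in turn. KCNQ1 itself, which shares 121 exon bases with it, had 5 counts over OE CD51 ICD and 9 over NC.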

How the results depend on the processing

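Of the 12 members past the test, all kept direction and call with library-size, RLE or upper-quartile scaling, limma-voom, DESeq2, no filter, protein-coding genes only, both FPKM pseudocounts, GC or length trend removed, and the replicate block. The exceptions were KCNJ11, not tested at 1 CPM in 3 libraries and lost without OE CD51 ICD replicate 3, and KCNK1, lost without NC replicate 3. KCNAB1 was also higher with upper-quartile scaling and on log2(FPKM + 0.1), KCNS3 lower with library size only, and KCNT2 lower with no filter and with the length trend removed (adjusted p = 0.0343 and 0.0327). On log2(FPKM + 1), values of low members were smaller, such as 0.50 for KCNA7. With libraries left out in turn, 4 to 5 members were higher and 6 to 9 lower, 1 to 4 other transport genes were higher and 4 to 6 lower. Over all genes, 2985 to 3612 were higher and 2916 to 3644 lower. With library size as the only scaling, 1 other transport gene was higher. Counted as expressed were 69 members by at least 1 count and 7 by a mean FPKM of at least 1, instead of 23. Fits of 3 reported members that did not pass changed sign, on the log2 scale: KCNJ14 was 0.00945 with upper-quartile scaling, 0.0583 with limma-voom, 0.0314 on log2(FPKM + 0.1), 0.036 with the GC trend removed and 0.00858 with the replicate block. With libraries left out in turn, KCNJ14 ranged from -0.341 to 0.153, KCNMB4 from -0.442 to 0.0438 (above 0 without OE CD51 ICD replicate 2) and KCNT2 from -1.14 to 0.0646 (above 0 without NC replicate 1). The cause was not tested. The replicate number as a block gave 5 higher and 7 lower members, as without it. Same-numbered samples are known to share only a number. Deviations of same-numbered libraries correlated at -0.05, 0.00 and 0.05, and those of differently numbered libraries at -0.08 to 0.09. With so few libraries this cannot tell whether same-numbered samples shared a culture or a day. Counts under about 10 per library limit what can be said of the 46 members counted but not tested.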
